A study of Homo sapiens with 45 samples.

Results

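The genes of the AP-1 transcription factor were followed through recombinant adeno-associated virus (rAAV) production in HEK293F cells, a suspension-grown line derived from human embryonic kidney. The set held 9 genes, FOS, FOSB, FOSL1, FOSL2, JUN, JUNB, JUND, ATF3 and MAFF, chosen by name and matched by Ensembl identifier among 60675 gene identifiers. Messenger RNA was counted in 45 libraries, 3 in each of 15 groups formed by 5 lines and 3 times. The lines were 293F, labelled wild type, AC1P, labelled wild type and polyclonal, and AC1.112, AC1.203 and AC1.230, each labelled wild type and clonal, so that each of these last lines stands for a single clone. Cells were sampled before transfection (0 h) and 24 h and 72 h after it. Transfection brought fresh medium, a reagent and 3 plasmids: a helper, one with the AAV rep and serotype 9 cap genes, and a reporter between the viral terminal repeats. The series was made to find how rAAV production changes gene expression and to compare lines with high and with baseline yield, and the labels used here do not say which lines those are. No mock-transfected group was among the samples, so the effects of the plasmids, the reagent, the new medium and time in culture cannot be told apart. The labels do not say whether the 3 libraries of a group came from separate cultures, and p-values measure the spread between those libraries, which may be technical.

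AP-1 is a family of dimers that bind DNA through a basic region followed by a leucine zipper. FOS proteins cannot pair with each other and need a JUN partner, while JUN proteins can pair among themselves. ATF3 pairs with itself or with JUN proteins. MAFF is a small MAF protein without an activation domain that pairs with itself, with FOS and with cap'n'collar factors such as NFE2L2. The genes are known as immediate early or stress-response genes. Growth factor signals reach FOS, FOSB and JUNB through ERK and the serum response factor, and stress signals reach JUN and ATF3 through JNK and p38. Their transcription usually fades within hours of a single stimulus. JUND is the member kept on in most cells. HEK293 cells were made with adenovirus DNA and keep adenovirus early genes, and the helper plasmid brings further adenovirus functions into the transfected cell.

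Promoter sequences are shown for 4 members, since the FOS and FOSB windows hold the same short elements at nearly the same distance from the start site while JUN and ATF3 share another. Windows of 300 bases, 250 before and 50 after the start site, came from RefSeq on GRCh38.p14 and matched 8 of the 9 members with 10 windows, ATF3 and MAFF having 2 each; FOSL1 was not matched. Capitals mark the elements searched for on both strands: the core TGACGT of the cyclic AMP response element, the TATA sequence TATAAA, and TGACATCA, a variant AP-1 site.
FOS (chr14:75278578-75278877, plus strand): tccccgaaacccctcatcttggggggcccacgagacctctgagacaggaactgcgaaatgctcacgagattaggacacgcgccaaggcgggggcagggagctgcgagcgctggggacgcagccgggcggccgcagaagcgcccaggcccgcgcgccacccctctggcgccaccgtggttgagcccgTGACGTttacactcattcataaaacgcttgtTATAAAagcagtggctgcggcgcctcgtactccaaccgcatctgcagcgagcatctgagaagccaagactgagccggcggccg
FOSB (chr19:45467746-45468045, plus strand): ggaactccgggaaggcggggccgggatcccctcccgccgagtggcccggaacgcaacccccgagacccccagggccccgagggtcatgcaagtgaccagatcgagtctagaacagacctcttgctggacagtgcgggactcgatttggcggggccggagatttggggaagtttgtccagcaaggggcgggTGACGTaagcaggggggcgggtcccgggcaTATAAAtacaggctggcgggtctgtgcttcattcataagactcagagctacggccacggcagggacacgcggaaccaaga
JUN (chr1:58783998-58784297, minus strand): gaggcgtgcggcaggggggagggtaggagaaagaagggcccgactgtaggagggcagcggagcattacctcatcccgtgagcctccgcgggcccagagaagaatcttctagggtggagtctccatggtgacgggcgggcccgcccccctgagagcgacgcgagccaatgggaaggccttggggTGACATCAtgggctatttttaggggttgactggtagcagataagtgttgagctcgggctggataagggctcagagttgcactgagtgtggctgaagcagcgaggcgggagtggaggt
ATF3 (chr1:212565157-212565456, plus strand): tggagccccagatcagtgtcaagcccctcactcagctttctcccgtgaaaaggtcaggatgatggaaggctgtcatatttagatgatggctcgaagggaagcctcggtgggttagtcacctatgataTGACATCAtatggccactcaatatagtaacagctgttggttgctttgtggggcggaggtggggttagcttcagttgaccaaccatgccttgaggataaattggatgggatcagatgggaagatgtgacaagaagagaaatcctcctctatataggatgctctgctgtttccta
The core TGACGT began 64 bases before the start site in FOS, 60 in FOSB and 66 in FOSL2, and was also present in JUND and MAFF, so that 5 of the 10 windows held it. Among all 35116 RefSeq windows of this length 7.98% held it. The core was added to the search after the sequences had been seen, and it overlaps the full element TGACGTCA, which stood in JUND and in MAFF and in 1.85% of all windows. TATAAA began 33 bases before the start site in FOS, 30 in FOSB and 31 in JUNB, and was also found in the downstream ATF3 window, against 11.5% of all windows. TGACATCA began 67 bases before the start site of JUN and 123 before that of the upstream ATF3 window, against 2.61% of all windows. The consensus AP-1 site TGANTCA was found in the FOSL2 window, where it read TGACTCA, and in 7.71% of all windows. The composite site TGATGCAA (0.866% of all windows) and the CArG box bound by the serum response factor (1.29%) were found in none of the 10 windows. Sequence more than 250 bases before the start site was not searched, so sites farther upstream would be missed. A match describes letters in a window and is not evidence that a factor was bound there.

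Libraries held 24727028 to 59837051 counts (median 39247411), and the mitochondrial share was 2.05% to 4.18%. All 9 genes passed the filter on low counts, as did 21242 genes in all. The lowest member count was 7, for FOSB in a library of AC1.230 at 0 h, and the highest 34562, for JUN. VIM, an intermediate filament gene that HEK293 cells express, was present in every library (590.3 to 1550.5 CPM). The neurofilament gene NEFM, a marker of HEK293 cells, had a median of 1.74 CPM in 293F and of 2698.8 to 3500.5 CPM in the AC1 lines. Of 5 blood markers summed, libraries held 0.550 to 1.81 CPM at 0 h, 1.49 to 19.3 CPM at 24 h and 2.68 to 8.56 CPM at 72 h. Of these markers HBB was at 0 in 14 of 15 libraries at 0 h and in none later, while the defining markers PTPRC, CD3E and CD68 had a median of 0 CPM at every time. CPM are counts scaled to a common library total, with TMM factors from edgeR. Library values in a group are given from lowest to highest.

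Per length of transcript, JUN, JUND and ATF3 were the abundant members and FOSB and MAFF the scarce ones. The median level over the 45 libraries, in CPM per kb of exon, was 158 for JUN, 89.7 for JUND and 42.1 for ATF3. JUNB stood at 9.38 CPM per kb, and FOSL1, FOS and FOSL2 at 4.20, 2.85 and 2.82. MAFF and FOSB had 0.562 and 0.547 CPM per kb. JUN alone made up 50.3% of the summed per-kb level of the 9 genes at 0 h (median of 15 libraries, range 47.4% to 66.9%) and 45.9% at 72 h (range 42.9% to 56.6%). The highest JUN share at 0 h belonged to 293F, at 66.4% ± 0.498 (SD, n = 3), where JUND made up 19.1% ± 0.366. The share of JUNB had a median of 2.25% at 0 h, 3.02% at 24 h and 4.54% at 72 h. FOSB had the widest range of group means, 19.97-fold from the lowest to the highest of the 15 groups, followed by FOSL1 (8.33-fold) and MAFF (5.89-fold), and JUN the narrowest (1.90-fold).

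**Figure D1:**
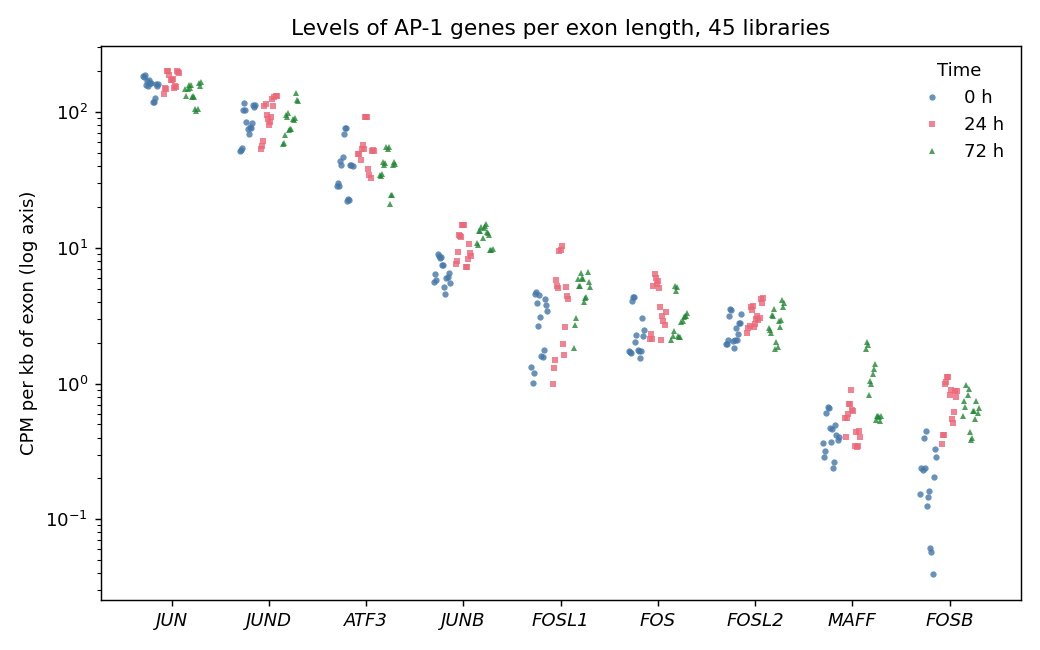
Level of each AP-1 gene in each of the 45 libraries, as TMM-scaled CPM per kb of exon on a log axis, with genes ordered by their median and points marked by time; JUN, JUND and ATF3 lie above the other 6 genes in all libraries, and the lowest FOSB points are from 0 h.

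All 9 genes rose at 24 h when the change was averaged over the 5 lines with equal weight, against 25.8% of all genes tested that were called higher and 27.4% called lower. Changes are log2 fold changes, on which 1 is a 2-fold rise, with their standard error (SE) from edgeR's quasi-likelihood test. A call is an adjusted p below 0.05, corrected over all genes by Benjamini and Hochberg, whatever the size of the change. The median log2 change of the members was 0.47, and that of all genes -0.006. At a change of at least 2-fold the call held for 1 member, FOSB, against 2.36% of all genes. In bulk RNA a change in the share of cells that express a gene and a change in RNA per cell cannot be told apart.

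FOSB (ENSG00000125740, chr19:45467995-45475179, plus strand), the FOS relative that accumulates in long-lived forms under repeated stimulation, changed most. In 293F, FOSB stood at 0.851, 1.29 and 1.32 CPM at 0 h, 1.99, 2.32 and 2.32 CPM at 24 h and 3.19, 3.76 and 4.14 CPM at 72 h. In AC1P it stood at 1.13, 1.59 and 1.84 CPM at 0 h, 4.40, 4.86 and 4.88 CPM at 24 h and 3.38, 3.70 and 4.12 CPM at 72 h. For AC1.112 the values were 1.32, 2.21 and 2.50 CPM at 0 h, 5.55, 5.70 and 6.20 CPM at 24 h and 4.58, 5.07 and 5.44 CPM at 72 h. In each of these lines, and in AC1.203 and AC1.230, every library after transfection lay above every untransfected one of that line, without overlap. In AC1.203, FOSB stood at 0.690, 0.813 and 0.893 CPM at 0 h, 4.57, 4.97 and 6.17 CPM at 24 h and 2.14, 2.19 and 2.45 CPM at 72 h. The AC1.230 libraries held 0.218, 0.317 and 0.340 CPM at 0 h, 2.86, 3.04 and 3.41 CPM at 24 h and 3.04, 3.46 and 3.48 CPM at 72 h, the lowest starting level of any group. Averaged over lines, FOSB was 4.08-fold higher at 24 h (log2 fold change 2.03, SE 0.10, adjusted p = 4.93e-27; n = 15 libraries per time), with a rise in 5 of 5 lines, from 1.90-fold in 293F to 10.4-fold in AC1.230 (log2 fold change 3.37, SE 0.28, adjusted p = 8.63e-15). The AC1.230 value rests on 34 reads in the 3 libraries at 0 h. The gene overlaps an intron of ERCC1 on the other strand, and ERCC1 itself fell at 24 h (-0.18) and 72 h (-0.28).

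FOS (ENSG00000170345, chr14:75278774-75282230, plus strand), the founding partner of JUN, rose 1.59-fold on average (log2 fold change 0.67, SE 0.05, adjusted p = 8.44e-17) and did so most in AC1.203. In that line the values were 5.70, 6.51 and 7.42 CPM at 0 h, 16.3, 17.6 and 18.6 CPM at 24 h and 7.11, 7.19 and 7.23 CPM at 72 h, a peak at 24 h that overlapped neither of the other times. In 293F they were 5.404, 5.56 and 5.66 CPM at 0 h, 6.85, 6.91 and 7.51 CPM at 24 h and 6.80, 7.23 and 7.93 CPM at 72 h. AC1P libraries held 7.30, 8.003 and 9.82 CPM at 0 h, 8.73, 9.38 and 10.8 CPM at 24 h and 10.1, 10.2 and 10.8 CPM at 72 h, with overlap between 0 h and 24 h. AC1.112 libraries, the highest at the start, held 13.04, 13.98 and 14.1 CPM at 0 h, 16.8, 19.5 and 20.8 CPM at 24 h and 15.7, 16.7 and 16.9 CPM at 72 h. In AC1.230 the values were 4.96, 5.62 and 5.66 CPM at 0 h, 6.74, 10.2 and 11.8 CPM at 24 h and 9.23, 9.32 and 10.1 CPM at 72 h, and its 24 h libraries were the most spread of any FOS group. The 24 h change was 1.43 in AC1.203 (SE 0.12, adjusted p = 1.04e-15). It was 0.85 in AC1.230, 0.48 in AC1.112 and 0.35 in 293F (adjusted p = 0.0230) on the log2 scale. The AC1P value of 0.22 did not pass (adjusted p = 0.195). The 293F call was lost without the 0 h replicate 2, the 0 h replicate 3 or the 24 h replicate 2 (adjusted p 0.0577 to 0.0845).

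FOSL1 (ENSG00000175592, chr11:65892049-65900573, minus strand), which encodes FRA1, a FOS relative without the FOS activation domain, had an average 24 h rise of 1.42-fold (log2 fold change 0.51, SE 0.07, adjusted p = 1.18e-08) that was called in 1 line only. In AC1.203 the values were 5.03, 5.82 and 8.49 CPM at 0 h, 17.995, 18.2 and 19.5 CPM at 24 h and 11.1, 11.3 and 12.4 CPM at 72 h, and the 24 h libraries stood above all other libraries of the study for this gene. The 24 h change there was 1.55 (SE 0.13, adjusted p = 1.02e-15), and in the other 4 lines it was 0.10 to 0.35 and did not pass (adjusted p 0.131 to 0.734). Without AC1.203 the average FOSL1 change was 0.25, adjusted p = 0.00742. FOSL2 (ENSG00000075426, chr2:28392448-28417312, plus strand), which encodes FRA2, rose 1.29-fold on average (log2 fold change 0.36, SE 0.03, adjusted p = 6.66e-14). Its group means at 24 h ran from 18.1 ± 1.04 CPM in 293F to 29.5 ± 1.44 CPM in AC1P (SD, n = 3). FOSL2 was called higher in 4 of 5 lines, with changes of 0.35 to 0.49, and had a change of 0.10 in AC1.112 (adjusted p = 0.355).

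Among the JUN genes, JUNB (ENSG00000171223, chr19:12791496-12793315, plus strand), which encodes a JUN protein that is a weaker activator than JUN itself, rose in all 5 lines. The average was 1.53-fold (log2 fold change 0.61, SE 0.04, adjusted p = 5.02e-20), and lines ranged from 0.49 in AC1.112 to 0.91 in AC1.203. In AC1.203 the values were 13.6, 13.6 and 15.6 CPM at 0 h, 26.6, 26.7 and 26.8 CPM at 24 h and 25.6, 26.6 and 27.1 CPM at 72 h. JUNB shares exon sequence with HOOK2 on the other strand, and the strand setting of the counting is not given in the sources used here. HOOK2 rose as well, by 0.17 at 24 h and 0.48 at 72 h, from a median of 15.2 CPM to 17.6 and 21.3 CPM. How many of the JUNB counts could be HOOK2 reads was not tested. JUND (ENSG00000130522, chr19:18279760-18281622, minus strand) changed little, by 1.14-fold on average (log2 fold change 0.19, SE 0.03, adjusted p = 1.86e-05), and was called in AC1.230 (0.47, adjusted p = 1.15e-05) and AC1P (0.23, adjusted p = 0.0270). Without AC1.230 the average JUND change was 0.12, adjusted p = 0.00309. The AC1P call was lost without the 0 h replicate 1 or 2 or the 24 h replicate 2 or 3 (adjusted p 0.0651 to 0.0987).

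JUN (ENSG00000177606, chr1:58780788-58784327, minus strand), the strongest activator among the JUN proteins, moved in opposite directions in different lines. In 293F the values were 646, 654 and 663 CPM at 0 h, 486, 523 and 530.4 CPM at 24 h and 464, 520.3 and 523 CPM at 72 h, so that every 0 h library stood above every later one. In AC1P they were 552, 568 and 569.6 CPM at 0 h, 692, 698 and 706 CPM at 24 h and 552, 579 and 587 CPM at 72 h. AC1.112 libraries held 549, 561 and 602 CPM at 0 h, 668, 710.3 and 711 CPM at 24 h and 532, 564 and 565 CPM at 72 h. In both of these lines the 24 h libraries lay above all others. AC1.203 libraries held 579.9, 582 and 607 CPM at 0 h, 606, 607 and 622 CPM at 24 h and 457, 461 and 466 CPM at 72 h. In AC1.230 the values were 419, 423 and 447 CPM at 0 h, 535, 541 and 548 CPM at 24 h and 360.0, 371 and 374 CPM at 72 h, with the 3 times fully apart. On the log2 scale JUN fell by 0.35 at 24 h in 293F (adjusted p = 1.06e-09) and rose by 0.31 in AC1P, 0.29 in AC1.112 and 0.33 in AC1.230, while the change of 0.05 in AC1.203 did not pass (adjusted p = 0.363). The average over lines was a 1.09-fold rise (log2 fold change 0.13, SE 0.02, adjusted p = 1.49e-07). Without 293F the JUN average was 0.25, adjusted p = 9.52e-14, and without AC1.230 it was 0.075, adjusted p = 0.00322.

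ATF3 (ENSG00000162772, chr1:212565334-212620777, plus strand), a stress-induced factor that often acts as a repressor, rose at 24 h in every line and fell again by 72 h. In 293F the values were 115, 115 and 121 CPM at 0 h, 179, 198 and 199 CPM at 24 h and 136, 140.3 and 141 CPM at 72 h. In AC1P they were 162, 165 and 165 CPM at 0 h, 207, 209 and 214 CPM at 24 h and 165, 168 and 173 CPM at 72 h. AC1.112 libraries held 165, 176 and 188 CPM at 0 h, 215, 216 and 231 CPM at 24 h and 164, 170.1 and 174 CPM at 72 h. In these lines, and in AC1.203 and AC1.230, the 24 h libraries lay above those of both other times. In AC1.203, the line with the highest level at each time, the values were 279, 310.3 and 311 CPM at 0 h, 371, 373 and 375 CPM at 24 h and 217, 224 and 224 CPM at 72 h. AC1.230, the line with the lowest level, held 89.9, 91.2 and 92.0 CPM at 0 h, 133, 138 and 154 CPM at 24 h and 85.4, 98.8 and 99.2 CPM at 72 h. The 24 h rise averaged 1.39-fold (log2 fold change 0.47, SE 0.02, adjusted p = 2.38e-26) and ran from 0.31 in AC1.203 to 0.72 in 293F.

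MAFF (ENSG00000185022, chr22:38200767-38216511, plus strand) rose 1.25-fold on average at 24 h (log2 fold change 0.32, SE 0.08, adjusted p = 0.000938) and was called in 2 lines, 293F (0.67) and AC1.203 (0.69). In the remaining lines the 24 h change was -0.02 in AC1P, 0.05 in AC1.112 and 0.21 in AC1.230, with adjusted p of 0.502 to 0.970. Its larger change came later. In 293F the values were 1.60, 1.80 and 2.05 CPM at 0 h, 2.27, 3.15 and 3.16 CPM at 24 h and 10.04, 10.8 and 11.3 CPM at 72 h, and no 72 h library overlapped an earlier one. In AC1.203 they were 2.07, 2.59 and 2.63 CPM at 0 h, 3.497, 3.60 and 5.03 CPM at 24 h and 6.63, 7.19 and 7.76 CPM at 72 h. AC1.112 libraries held 3.42, 3.74 and 3.78 CPM at 0 h, 3.33, 3.98 and 3.99 CPM at 24 h and 4.65, 5.59 and 5.83 CPM at 72 h. Nor did a 72 h library overlap an earlier one in AC1.203 or AC1.112. In AC1P the values were 2.17, 2.28 and 2.35 CPM at 0 h, 1.94, 2.27 and 2.52 CPM at 24 h and 2.98, 3.16 and 3.23 CPM at 72 h, and in AC1.230 they were 1.34, 1.48 and 2.77 CPM at 0 h, 1.90, 1.94 and 2.46 CPM at 24 h and 3.02, 3.22 and 3.26 CPM at 72 h, where 72 h lay above the earlier times without overlap in both lines.

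**Figure D2:**
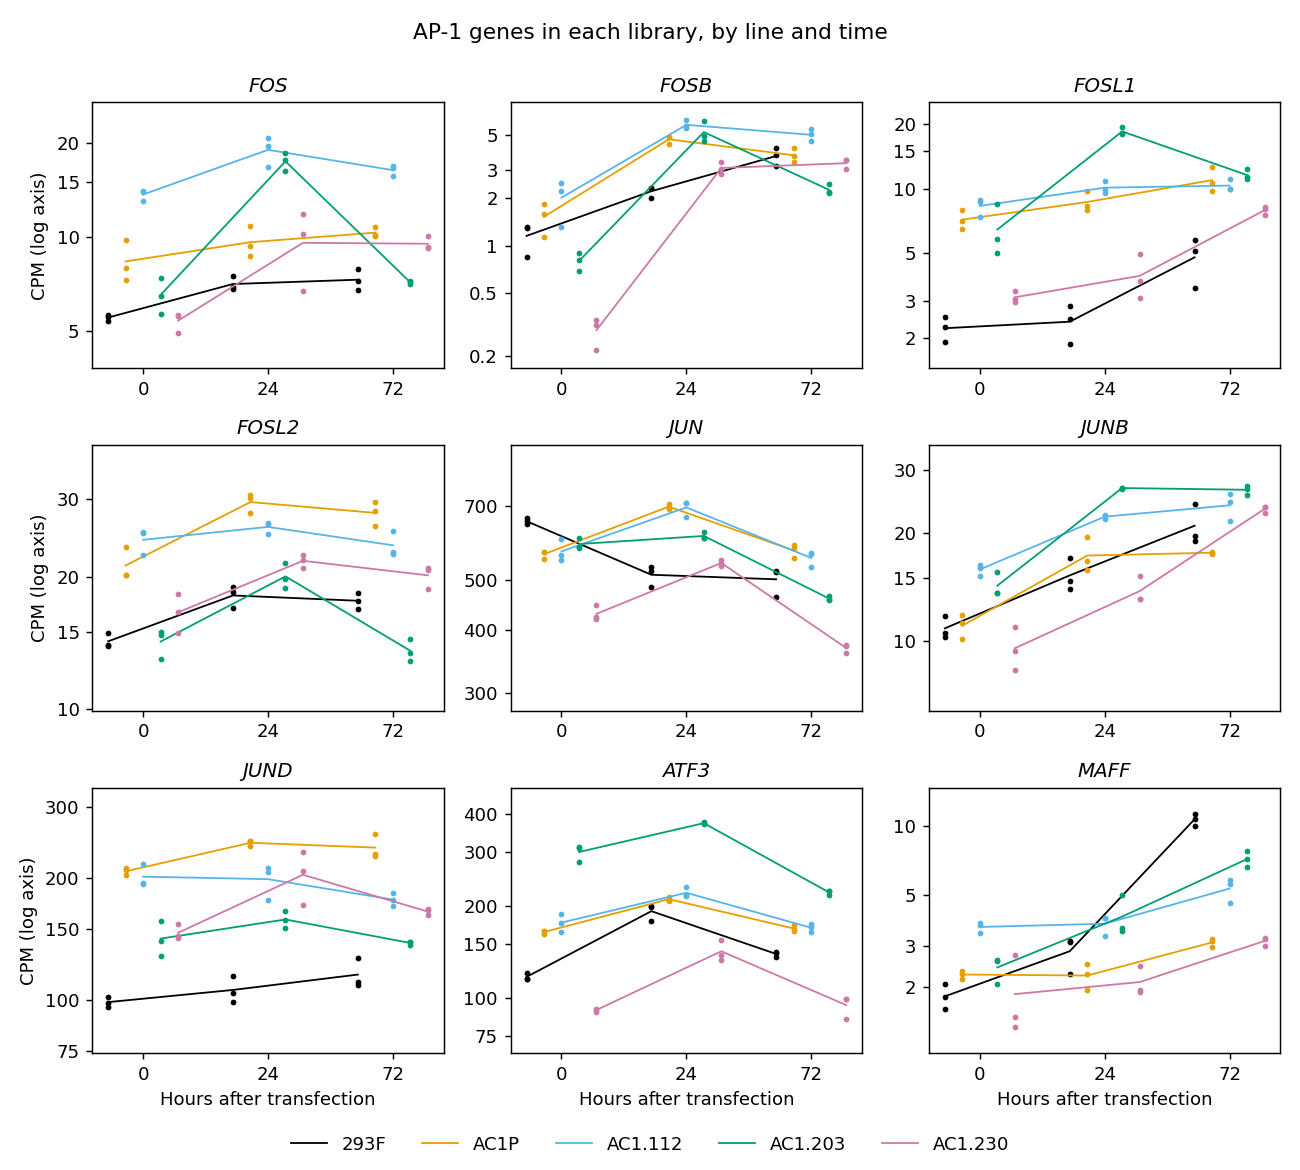
TMM-scaled CPM (log axis) of each AP-1 gene in each library, with 1 panel per gene; times 0, 24 and 72 h are spaced evenly and not to scale, points are libraries shifted sideways by line, and lines join the group means (n = 3). FOS and FOSL1 peaked at 24 h in AC1.203, MAFF reached 10.04 to 11.3 CPM in 293F at 72 h, and ATF3 was highest at 24 h in every line.

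At 72 h against 0 h, 6 of the 9 genes were higher (30.5% of all genes were) and 1 was lower (29.6% of all genes). The median change of the members was 0.39 against 0.03 for all genes. FOSB was still 3.62-fold higher (log2 fold change 1.85, SE 0.10, adjusted p = 1.14e-24), with changes of 1.27 in AC1P to 3.47 in AC1.230. MAFF was 2.29-fold higher (log2 fold change 1.19, SE 0.08, adjusted p = 5.45e-21), from 0.48 in AC1P, which did not pass (adjusted p = 0.0569), to 2.57 in 293F. These 2 genes passed at 2-fold or more, as did 6.21% of all genes. Without 293F the MAFF average was 0.86, adjusted p = 8.28e-12, under 2-fold. JUNB rose 1.84-fold (log2 fold change 0.88, SE 0.04, adjusted p = 2.50e-27) and in 5 of 5 lines, most in AC1.230, where it went from 8.28, 9.36 and 10.9 CPM at 0 h to 22.8, 23.6 and 23.7 CPM. FOSL1 rose 1.80-fold (log2 fold change 0.85, SE 0.07, adjusted p = 2.37e-17) and in 4 lines. In AC1.112 its change of 0.31 missed the threshold (adjusted p = 0.0550).

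FOS rose 1.31-fold on average at 72 h (log2 fold change 0.39, SE 0.06, adjusted p = 9.96e-09) and FOSL2 1.13-fold (log2 fold change 0.18, SE 0.04, adjusted p = 1.52e-05). By line, FOS rose most in AC1.230 (0.81), was called at 0.40 in 293F, 0.32 in AC1P and 0.27 in AC1.112, and had a change of 0.14 in AC1.203 (adjusted p = 0.447). The AC1.112 call was lost without any 1 of the 6 libraries compared (adjusted p 0.0616 to 0.206), and the AC1P call without the 0 h replicate 2 or 3 or any 72 h library (adjusted p 0.0716 to 0.392) and under another scaling or without the filter on low counts. JUN was the member that fell, to 0.873 of its 0 h level (log2 fold change -0.20, SE 0.02, adjusted p = 4.19e-13), and it was called lower in 293F, AC1.203 and AC1.230, with changes of -0.38, -0.36 and -0.22. For JUND the average change was 0.07 (SE 0.03, adjusted p = 0.0664), short of the threshold in edgeR and past it in DESeq2 (0.08, adjusted p = 0.0382). In 293F JUND was called higher (0.22), a call lost without the 0 h replicate 1 or 2 or the 72 h replicate 3 (adjusted p 0.0576 to 0.149).

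ATF3 had an average change of -0.03 at 72 h (SE 0.02, adjusted p = 0.265), made of lines that went opposite ways. It was higher in 293F (0.25, adjusted p = 6.49e-05) and lower in AC1.203 (-0.44, adjusted p = 5.46e-10), with -0.05 to 0.05 in the other 3. Without AC1.203 the average was 0.071, adjusted p = 0.0152, and without 293F it was -0.091, adjusted p = 0.00315.

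From 24 h to 72 h the members split. FOSL1, JUNB and MAFF rose further (3 of 9, against 29.6% of all genes) and FOS, FOSB, FOSL2, JUN, JUND and ATF3 fell (6 of 9, against 28.9% of all genes). MAFF rose 1.83-fold (log2 fold change 0.87, SE 0.07, adjusted p = 1.89e-16) and had a positive change in 5 of 5 lines, 4 of them past the threshold. The AC1.112 call was lost without its 24 h replicate 1 (0.42, adjusted p = 0.0714) and the AC1.230 call without its 24 h replicate 3 (0.54, adjusted p = 0.0550). ATF3 fell to 0.707 of its 24 h level (log2 fold change -0.50, SE 0.02, adjusted p = 1.97e-27) and did so in 5 of 5 lines, from -0.32 in AC1P to -0.75 in AC1.203. JUN fell by 0.32 on the log2 scale (SE 0.02, adjusted p = 1.41e-21), with calls in the 4 AC1 lines and a change of -0.03 in 293F (adjusted p = 0.610). JUNB rose by 0.26 on average, called in 293F (0.45) and AC1.230 (0.76), and FOSL1 by 0.34, with rises of 1.00 in 293F and 1.00 in AC1.230 and a fall in AC1.203 (-0.68). The FOSL1 average was 0.18, adjusted p = 0.00996 without 293F, 0.18, adjusted p = 0.0248 without AC1.230 and 0.59, adjusted p = 3.97e-10 without AC1.203. The JUNB average was 0.14, adjusted p = 0.00284 without AC1.230.

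In AC1.203 all 4 genes of the FOS family fell between 24 h and 72 h. In this line 7 of the 9 members were lower at 72 h than at 24 h, against 24.9% of all genes, and FOS fell to 0.411 (adjusted p = 1.83e-15), FOSB to 0.437, FOSL1 to 0.623 and FOSL2 to 0.676 of the 24 h level. In the other lines FOS changed by -0.21 to 0.10, none of them called. Without AC1.203 the average change of FOS was -0.030, adjusted p = 0.703, and that of FOSB turned from -0.17 (adjusted p = 0.0268) to 0.078, adjusted p = 0.419. Without 293F the FOSB average was -0.40, adjusted p = 1.17e-05. The FOSB average was also short of the threshold without AC1P (-0.14, adjusted p = 0.125), without the 24 h replicate 3 of AC1.230 (-0.16, adjusted p = 0.0522) and without the 72 h replicate 1 of 293F (-0.15, adjusted p = 0.0532). FOSB itself rose between these times in 293F (0.75, adjusted p = 0.000116). FOSL2 fell by 0.19 on average, and by less without AC1.203 (-0.095, adjusted p = 0.0296). JUND fell by 0.11, with calls in AC1.230 (-0.30) and AC1.203 (-0.19). Without AC1.230 the JUND average was -0.068, adjusted p = 0.0797. Its AC1.230 call was lost without the 24 h replicate 2 (-0.19, adjusted p = 0.103) and its AC1.203 call without the 24 h replicate 1 or 3 or any 72 h library (adjusted p 0.0604 to 0.118).

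Line by line, the members called higher at 24 h numbered 6 of 9 in 293F (21% of all genes), 6 of 9 in AC1P (10.2% of all genes), 5 of 9 in AC1.112 (10.7% of all genes), 7 of 9 in AC1.203 (20.9% of all genes) and 7 of 9 in AC1.230 (12.3% of all genes). The 1 member called lower at 24 h was JUN in 293F (23.8% of all genes). In the AC1 lines no member was called lower, against 9.97% of all genes in AC1P, 12.2% in AC1.112, 21% in AC1.203 and 15.2% in AC1.230. At 72 h the numbers called higher were 8 of 9 in 293F (20.8% of all genes), 5 of 9 in AC1P (12.6% of all genes), 4 of 9 in AC1.112 (15% of all genes), 4 of 9 in AC1.203 (14.4% of all genes) and 6 of 9 in AC1.230 (17.8% of all genes). Lower at 72 h were JUN in 293F (22.9% of all genes), JUN and ATF3 in AC1.203 (17.3%) and JUN in AC1.230 (22.8%). No member was lower in AC1P (13.1%) or AC1.112 (18.5%). From 24 h to 72 h, 293F had 4 members higher (FOSB, FOSL1, JUNB and MAFF; 23.4% of all genes) and ATF3 lower (23%). AC1P had none higher (7.12%) and JUN and ATF3 lower (6.16%), and AC1.112 had MAFF higher (11.9%) and JUN and ATF3 lower (14.9%). AC1.203 had MAFF as its 1 higher member (25.1%). AC1.230 had FOSL1, JUNB and MAFF higher (8.91%) and JUN, JUND and ATF3 lower (12.3%). The comparisons at 24 h and 72 h share the 0 h libraries of each line.

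The response differed between lines for each of the 9 genes, by an F test of the line by time interaction with 4 degrees of freedom. At 24 h this test passed for 44.5% of all genes and at 72 h for 24.2%. At 24 h the smallest adjusted p among members was that of JUN (7.85e-15), followed by FOSL1 (1.57e-08) and FOS (6.24e-08), and the largest that of MAFF (0.0363). The MAFF result at 24 h missed the threshold in 9 of the 30 fits that left out a library of 0 h or 24 h, with adjusted p of 0.0513 to 0.0748. These fits lacked the 24 h replicate 1 of AC1.203, 293F, AC1.112 or AC1P, the 0 h replicate 2 of AC1.112, AC1.203 or 293F, or replicate 3 of 293F at 0 h or 24 h. JUNB missed it without the 0 h replicate 2 or 3 of AC1.203 (adjusted p 0.0571 to 0.0711). At 72 h the smallest adjusted p was that of MAFF (7.84e-11) and the largest that of FOS (0.0280), which missed the threshold without the 0 h replicate 2 or the 72 h replicate 3 of AC1.230 (adjusted p 0.0764 to 0.0795).

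The response of 293F was set against the mean response of the 4 AC1 lines, which differ among themselves, so that a single AC1 line can lie close to 293F. The ATF3 change at 24 h was 0.72 in 293F and 0.64 in AC1.230 (SE 0.05), and the JUN change at 72 h was -0.38 in 293F and -0.36 in AC1.203. At 24 h the FOSB response was smaller in 293F by 1.38 on the log2 scale (-1.38, SE 0.26, adjusted p = 3.36e-05), the JUN response was lower (-0.60, SE 0.05, adjusted p = 4.52e-15) and the ATF3 response higher (0.31, SE 0.06, adjusted p = 3.27e-05). The FOS response was also smaller (-0.39, SE 0.14, adjusted p = 0.0383), a call lost in 10 of the 30 fits that left out a library of 0 h or 24 h. These were the fits without 0 h replicate 1, 2 or 3 or 24 h replicate 1 or 3 of 293F, 0 h replicate 2 or 24 h replicate 3 of AC1P, 0 h replicate 3 of AC1.203, and 0 h replicate 2 or 24 h replicate 1 of AC1.230 (adjusted p 0.0506 to 0.0935). Of all genes 11.2% had a higher and 13.8% a lower response in 293F at 24 h. At 72 h the MAFF response was 3.29-fold larger in 293F (1.72, SE 0.18, adjusted p = 1.12e-10), ATF3 differed by 0.35 and JUN by -0.23 (adjusted p = 1.04e-05 and 0.000478), against 6.68% of all genes higher and 9.82% lower. The region of MAFF lies over an intron of PLA2G6 on the other strand, and PLA2G6 rose by 0.66 at 72 h over the 5 lines (median 10.5 CPM at 0 h and 15.7 CPM at 72 h). Its part in the MAFF counts was not tested. FOSL1, FOSL2, JUNB and JUND did not pass in this comparison at either time, with adjusted p of 0.0893 or more.

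**Figure D3:**
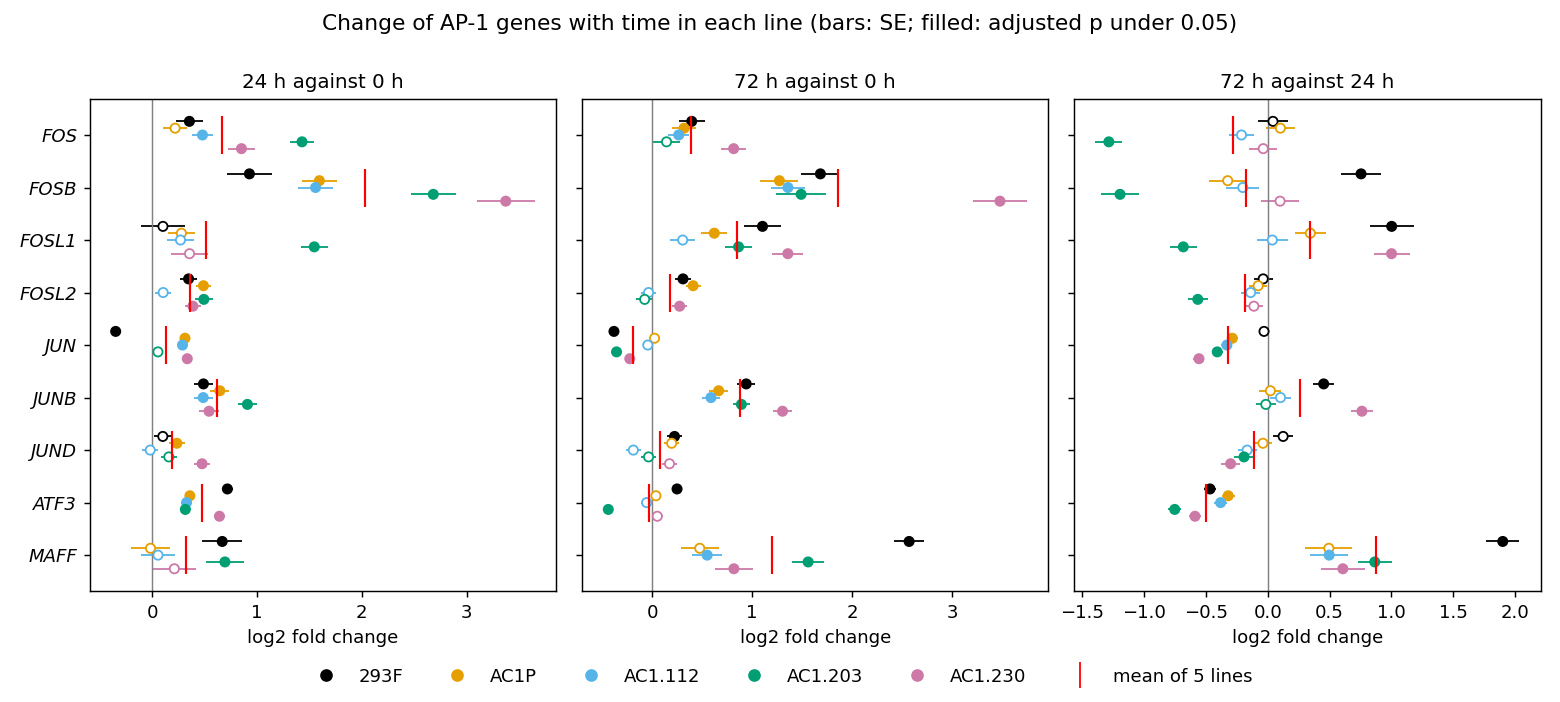
Log2 fold change of each AP-1 gene in each line for the 3 comparisons of times, with bars of 1 SE, filled points for an adjusted p under 0.05 in edgeR and red ticks for the mean of the 5 lines; among the points away from the other lines are FOSB in AC1.230 at 72 h (3.47), FOSL1 in AC1.203 at 24 h (1.55), MAFF in 293F at 72 h (2.57) and FOS in AC1.203 from 24 h to 72 h (-1.28).

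Before transfection the level of each of the 9 genes differed between lines (F test over the 5 lines), as did that of 81.8% of all genes. The smallest adjusted p was that of ATF3 (5.28e-38) and the largest that of MAFF (5.73e-06). FOSL1 and JUND were higher and JUN lower in all 4 AC1 lines than in 293F. The share of all genes that differed the same way in all 4 lines is not given here. FOSL1 stood at 1.91, 2.26 and 2.50 CPM in 293F, 6.51, 7.11 and 7.92 CPM in AC1P, 7.35, 8.68 and 8.91 CPM in AC1.112, 5.03, 5.82 and 8.49 CPM in AC1.203 and 2.95, 3.04 and 3.33 CPM in AC1.230. The FOSL1 difference was 1.92 in AC1.112 (SE 0.17, adjusted p = 1.05e-15), 1.70 in AC1P, 1.52 in AC1.203 and 0.48 in AC1.230, the last of which was lost without any AC1.230 library or without replicate 2 or 3 of 293F (adjusted p 0.0514 to 0.161). JUND had 96.3, 98.7 and 102 CPM in 293F and 203, 209 and 212 CPM in AC1P, a 2.10-fold difference (adjusted p = 1.39e-14), and no 293F library reached an AC1 library. JUN was lower by 0.15 in AC1.203 to 0.61 in AC1.230 on the log2 scale (-0.15 and -0.61, adjusted p = 0.00288 and 6.63e-19).

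None of the other members was called in the same direction in all 4 AC1 lines. ATF3 and FOSB were called higher in some lines and lower in AC1.230. FOS, FOSL2, JUNB and MAFF were called only higher, each in some of the lines. ATF3 was 2.57-fold higher in AC1.203 than in 293F (log2 difference 1.36, SE 0.05, adjusted p = 3.37e-32), 1.51-fold in AC1.112 and 1.40-fold in AC1P, and lower in AC1.230 (-0.36, adjusted p = 2.11e-08). FOSB was lower in AC1.230, at 0.259 of the 293F level (log2 difference -1.95, SE 0.35, adjusted p = 2.10e-06), and higher in AC1.112 (0.77, adjusted p = 0.00251). FOS was 2.46-fold higher in AC1.112 (log2 difference 1.30, SE 0.12, adjusted p = 8.38e-15) and 1.50-fold in AC1P, and its differences of 0.23 and -0.03 in AC1.203 and AC1.230 did not pass. MAFF was 2.0004-fold higher in AC1.112 (adjusted p = 3.96e-06) and JUNB was higher in AC1.112 (0.55) and AC1.203 (0.39). FOSL2 was higher in AC1.112 (0.76), AC1P (0.56) and AC1.230 (0.22), the last call being lost without replicate 1 of AC1.230 or replicate 2 of 293F (adjusted p 0.0578 to 0.202). Counted by line, members were 5 higher and 1 lower in AC1P (30.4% and 33.4% of all genes), 8 higher and 1 lower in AC1.112 (30.5% and 33% of all genes), 4 higher and 1 lower in AC1.203 (28.2% and 30.2% of all genes) and 3 higher and 3 lower in AC1.230 (30.8% and 32.4% of all genes). The 4 comparisons share the 293F libraries.

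**Figure D4:**
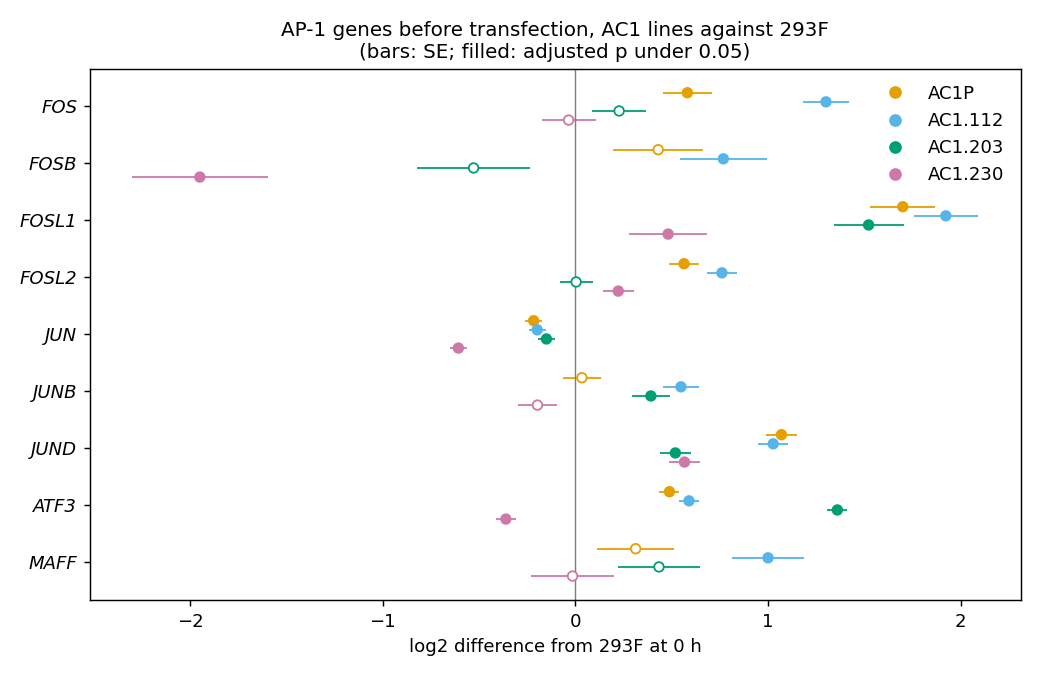
Log2 difference of each AP-1 gene between each AC1 line and 293F before transfection, with bars of 1 SE and filled points for an adjusted p under 0.05 in edgeR; FOSL1 and JUND lie to the right of 0 and JUN to the left of 0 in all 4 lines, and FOSB in AC1.230 is the point farthest to the left.

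In the order of group means, neighbours are called apart here where their libraries did not overlap. For FOS the highest means were those of AC1.112 and AC1.203 at 24 h and of AC1.112 at 72 h (19.0 ± 2.01, 17.5 ± 1.16 and 16.4 ± 0.636 CPM, mean ± SD, n = 3), with overlapping libraries. Of 14 neighbouring pairs 3 were apart for FOS. For FOSB the lowest mean, 0.291 ± 0.0650 CPM in AC1.230 at 0 h, was apart from the next, 0.799 ± 0.102 CPM in AC1.203 at 0 h. For FOSL1 the highest mean, 18.6 ± 0.826 CPM in AC1.203 at 24 h, was apart from the next, 11.6 ± 0.679 CPM in that line at 72 h. MAFF had its highest means in 293F (10.7 ± 0.650 CPM) and AC1.203 (7.20 ± 0.564 CPM) at 72 h, apart from each other and from the rest. ATF3 had 373 ± 2.18 CPM in AC1.203 at 24 h and 91.1 ± 1.05 CPM in AC1.230 at 0 h as its extremes, and 7 of 14 neighbouring pairs were apart, the most of any member. JUN ran from 368 ± 7.21 CPM in AC1.230 at 72 h to 699 ± 7.27 CPM in AC1P at 24 h, the latter not apart from AC1.112 at 24 h (696 ± 24.8 CPM). JUNB had its highest means in AC1.203 at 24 h and 72 h (26.7 ± 0.0824 and 26.4 ± 0.760 CPM) and its lowest in AC1.230 at 0 h (9.53 ± 1.34 CPM). JUND was lowest in 293F at 0 h (99.1 ± 2.94 CPM) and highest in AC1P at 24 h (245 ± 4.21 CPM), and FOSL2 lowest in AC1.203 at 72 h (13.6 ± 0.781 CPM) and highest in AC1P at 24 h (29.5 ± 1.44 CPM).

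Across the 15 group means of log2 CPM, the members were correlated to different degrees. Pearson's r between members was over 0.5 in 14 of 36 pairs and below 0 in 4, with a median of 0.43. These values describe 15 groups that share lines and times and carry no test. Whether pairs of other genes give similar values was not tested. The closest pairs were FOSL2 with JUND (0.83), FOSB with JUNB (0.78), JUNB with MAFF (0.76) and FOS with FOSB (0.75), and the lowest were JUN with MAFF (-0.18) and JUND with MAFF (-0.17). Among 11837 protein-coding genes with a mean log2 CPM of 1 or more, the genes with the pattern most like FOS were KIF18B (0.90), KMT5A (0.89) and EGR1 (0.89), the last an immediate early zinc finger factor. For JUNB they were NR4A2 (0.91) and NR4A1 (0.90), orphan nuclear receptors of the immediate early class, and SPRED2 (0.89), an inhibitor of RAS-ERK signalling. FOSB was closest to MEX3B (0.91), TNRC6C (0.90) and KMT2B (0.89). FOSL1 was closest to HERC5 (0.94), an interferon-induced ligase, P2RY11 (0.92) and PEA15 (0.91). FOSL2 was closest to EEIG1 (0.94), HIPK3 (0.93) and ZFX (0.93). JUN was closest to SPR (0.86), CIB1 (0.85) and CCDC90B (0.82), and JUND was closest to TICRR, PDE4DIP and SOGA1 (0.96 each). ATF3 was closest to SLC2A1 (0.92), the glucose transporter GLUT1, FBXO28 (0.92) and MTSS2 (0.91). MAFF was closest to TFEB (0.94), a regulator of lysosome genes, CACNB1 (0.94) and H2BC15 (0.90).

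Genes around the members are described by count, beside the 25.8% of all genes higher and 27.4% lower at 24 h and the 30.5% and 29.6% at 72 h. Of 18 genes tested, from a list of 19 for other leucine zipper factors that can pair with AP-1 proteins, 11 rose and 2 fell at 24 h (median 0.22), and 9 rose and 2 fell at 72 h (median 0.10). MAFK, a small MAF like MAFF, rose by 0.49 at 24 h and 0.64 at 72 h (adjusted p = 3.89e-22 and 1.71e-27), and MAFG, the third small MAF, by 0.36 at 72 h. NFE2L2, the antioxidant factor that pairs with small MAFs, rose by 0.42 at 24 h, from a median of 48.7 CPM to 64.7 CPM. ATF1, a cyclic AMP response factor, rose by 0.39 at 24 h, and BATF3, a partner of JUN proteins, by 0.53 at 72 h.

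Of 21 genes for MAP kinases and serum response factor partners, which lie upstream of AP-1, 11 rose and 4 fell at 24 h (median 0.08), and 6 rose and 10 fell at 72 h (median -0.03). MAPK3, the gene of ERK1, fell by 0.55 at 24 h (SE 0.03, adjusted p = 4.94e-24) and 0.34 at 72 h, from a median of 160.3 CPM at 0 h to 106 and 123 CPM. MAP3K1, a kinase upstream of JNK, rose by 0.24 and MRTFB, a serum response factor partner, by 0.21 at 24 h, while ELK3 fell by 0.20. At 72 h ELK4, an activator of FOS, rose by 0.37, and MAP2K4 and MAP2K6, kinases of the JNK and p38 arms, fell by 0.28 and 0.44. Of 22 genes tested, from a list of 25 AP-1 targets, 11 rose and 5 fell at 24 h (median 0.49) and 11 rose and 6 fell at 72 h (median 0.50). HBEGF, a growth factor that binds the EGF receptor, rose by 0.63 at 24 h and 0.35 at 72 h, VEGFA, an angiogenic factor, by 0.51 and 0.64, and the cytokine LIF by 0.47 and 1.34. The LIF level went from a median of 2.20 CPM (range 1.68 to 4.65) at 0 h to 6.47 CPM (5.03 to 8.94) at 72 h, without overlap. HMOX1, the haem oxygenase gene under NFE2L2, BACH1 and small MAF control, fell by 0.95 at 24 h and 0.71 at 72 h.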

How the data were processed

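Poly(A) RNA from 45 libraries (3 per line and time) was sequenced after a library kit that marks the strand, per the labels' protocols. The deposited files hold raw counts for each Ensembl gene, which the authors made with HISAT2, Subread and featureCounts on GRCh38, per the submitters' processing notes; the sources used here name no version, strand setting or annotation release. Symbols matched 56558 of 60675 identifiers; coordinates and exon lengths are from GENCODE release 29 on GRCh38, and promoters from RefSeq on GRCh38.p14.

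Samples were grouped by their labels. The analysis used R 4.3.3 with edgeR 4.0.16: filterByExpr over 15 groups (minimum count 10, minimum total 15; 21242 genes kept), TMM scaling, and the quasi-likelihood test (glmQLFit, robust; glmQLFTest) on all libraries together. Adjusted p-values are Benjamini-Hochberg over all genes tested, a call is an adjusted p under 0.05, and an SE is the log2 change divided by the square root of its F. Levels are TMM-scaled CPM as mean ± SD of 3 libraries; per-kb levels divide by the union of exons, since counts grow with transcript length. The script was tested on simulated data. Alternatives were median-ratio scaling, DESeq2 1.42.0, no filter on low counts, a replicate block, thinning to the smallest total, leaving out each library or line, and fits on the libraries of 1 line.

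The members, the 3 lists of partner, upstream and target genes and the rules were chosen with earlier results of these data known. All 9 members are named; of each list, up to 4 genes at 24 h and at 72 h with the largest change among those called, given a mean log2 CPM not under 1; and for each member the 3 protein-coding genes with the highest correlation over the 15 groups. Counts of different libraries in a group differed by more than sampling noise (chi-square per gene 4.08 to 23.6), so none was treated as a repeat of another. Some genes that these rules name are not reported here.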

Additional observations from a re-analysis of the deposited data

Results flagged for a closer look

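The change from 0 h differed between the 5 lines for all 9 AP-1 genes, by the F test of the interaction in edgeR. At 24 h the adjusted p was 6.24e-08 for FOS, 5.63e-07 for FOSB, 1.57e-08 for FOSL1, 0.0111 for FOSL2, 7.85e-15 for JUN, 0.0212 for JUNB, 0.00455 for JUND, 6.22e-07 for ATF3 and 0.0363 for MAFF. At 72 h it was 0.0280 for FOS, 6.05e-05 for FOSB, 0.000613 for FOSL1, 0.000825 for FOSL2, 3.37e-07 for JUN, 0.000159 for JUNB, 0.0137 for JUND, 1.56e-09 for ATF3 and 7.84e-11 for MAFF. The same test passed for 44.5% of all genes at 24 h and 24.2% at 72 h.

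The response of 293F differed from the mean response of the 4 AC1 lines for 4 genes at 24 h and 3 at 72 h. At 24 h the difference on the log2 scale was -0.39 for FOS, -1.38 for FOSB, -0.60 for JUN and 0.31 for ATF3. At 72 h it was -0.23 for JUN, 0.35 for ATF3 and 1.72 for MAFF. For JUN at 24 h the lines moved in opposite directions, with a fall in 293F and rises in AC1P, AC1.112 and AC1.230.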

How the results depend on the processing

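In all, 9 counts of members and 174 results for single members were recomputed, each under some of the 60 alternatives run. Of 3318 recomputed single results, 3233 kept their direction and side of the threshold, 76 were no longer called, 7 became called and 2 changed sign. The count of members lower at 72 h than at 0 h was 2 without 293F, where ATF3 joined JUN, against 1 with all lines. The changes of sign both came without AC1.203: the average of ATF3 at 72 h against 0 h became 0.071 and that of FOSB at 72 h against 24 h became 0.078. The cause was not tested. With the replicate number as a block beside the groups, 9 members were higher at 24 h and 6 at 72 h, and no call of a member changed. Same-numbered libraries of different groups did not deviate together from their group means (Pearson's r -0.080 to 0.067 over 315 pairs). A shared culture or day that left no common deviation would not show in this check. Whether the numbers pair the libraries is therefore not known. JUND at 72 h against 0 h passed the threshold in DESeq2, without the filter on low counts, without AC1.112 or AC1.203 and without the 0 h replicate 1 of AC1.203 or the 72 h replicate 1 of 293F. After thinning to the smallest total, the line differences of MAFF at 24 h and FOS at 72 h were among the calls lost. The F tests and line-by-line results were not run in DESeq2. Low counts limit FOSB most: its 3 libraries of AC1.230 at 0 h held 34 reads in all.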
